A study of Mus musculus with 5 samples.

Results

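The genes described here encode the kinases of the mitogen-activated protein (MAP) kinase cascade, the proteins named after them, and the dual-specificity phosphatases (Dusp). They were taken by symbol, as every gene whose annotated symbol begins with Map2k, Map3k or Map4k and a number, with Mapk, or with Dusp and a number. Of 53 such probes for 37 genes, 51 probes for 36 genes had a value on all 5 arrays, out of 8637 named genes measured in the same way. The 36 genes are 2 MAP kinase kinase kinase kinases (MAP4Ks), 6 MAP3Ks, 5 MAP2Ks, 6 MAP kinases, 3 kinases downstream of them, 3 scaffolds or binding partners, 2 phosphatases of the typical MAP kinase phosphatase group and 9 other dual-specificity phosphatases. The remaining gene, Map2k6, had no value at 2 h and 7 h.

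In this cascade a MAP3K phosphorylates a MAP2K, which in turn phosphorylates a MAP kinase of the ERK, JNK or p38 class on a threonine and a tyrosine. In macrophages the endotoxin receptor Tlr4 feeds all 3 classes, and its route to ERK runs through Map3k8 (Tpl2) and the kinases Map2k1 and Map2k2. Dual-specificity phosphatases remove both phosphates, and several of the typical group are transcribed in response to the same signals, which makes them feedback inhibitors. The kinases are regulated mainly by phosphorylation, which the arrays do not measure.

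The macrophages were grown from bone marrow of C3H/ARC mice in culture with human CSF-1, the growth factor of the lineage. They were left unstimulated (0 h) or given 10 µg per ml of S. minnesota lipopolysaccharide (LPS), the endotoxin of the outer membrane, and kept in it for 0.5, 2, 7 or 21 h. Each time is 1 array, hybridised with macrophage RNA and with RNA of whole C57BL6/J embryos of day 17.5 as a common reference, and the labels do not say how many mice gave the cells. With 1 array a time there is no replicate and no p-value, and precision is limited by how few arrays there are.

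Values are log2 ratios of macrophage to embryo with the median of each array set to 0, and a change is such a ratio minus that at 0 h, so every change shares the 0 h array. The deposited values were read as log10, which was inferred from their range. If they were log2, every log2 value below is 3.32 times too large. The direction is likely, from marker genes: the median deposited value of 8 macrophage markers was 0.688, 0.719, 0.768, 0.606 and 0.568 in order of time, and that of 22 embryo markers was -0.345, -0.568, -0.540, -0.593 and -0.559. All 22 embryo markers lay below the array median on every array, and 6 or 7 of the 8 macrophage markers lay above it. Counts of genes at or beyond 2-fold follow a fixed size and no test. Pooled over the 3015 genes that have more than 1 probe, the SD between probes of one gene for the log2 changes at 0.5, 2, 7 and 21 h was 0.67, 0.97, 0.51 and 0.47.

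High ratios at 0.5 h and 2 h were concentrated in 94 of 207 runs of 96 consecutive probe numbers, called affected runs below. A run counts as affected where 10% or more of its probes were at least 2-fold above 0 h at one of these times. They hold 45.3% of all probes and 23 of the 51 member probes. For 13 of the 36 genes every probe lies in such a run, and 23 genes have a probe outside. Neutrophil markers were measured for 6 of 9 listed symbols, among which Ela2 and Elane name the same gene. Their median change was -0.51 at 21 h. Their log2 ratio ran from -0.18 to 1.14 at 0 h and from -1.03 to 0.93 at 21 h. The B-cell genes Cd79a and Cd79b, 2 of 5 markers measured, had median changes of 1.18, 1.37, 1.33 and 1.13, with log2 ratios of -2.08 to 0.28 at 0 h and -0.29 to 0.75 at 21 h. Mast cell markers, 3 of 4 measured, had a median change of -1.05 at 7 h and -0.24 at 21 h. Their log2 ratios were -1.11 to 0.91 at 0 h and -1.73 to -0.81 at 7 h. Map3k4, Mapk8 and Dusp19 were at least 2-fold lower at 7 h, and at 21 h the changes of these genes were 0.31, -1.39 and -0.95. Whether other cells had a part in the changes below was not tested, and on arrays of whole cultures fewer cells of a type and less RNA per cell cannot be told apart.

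**Figure D1:**
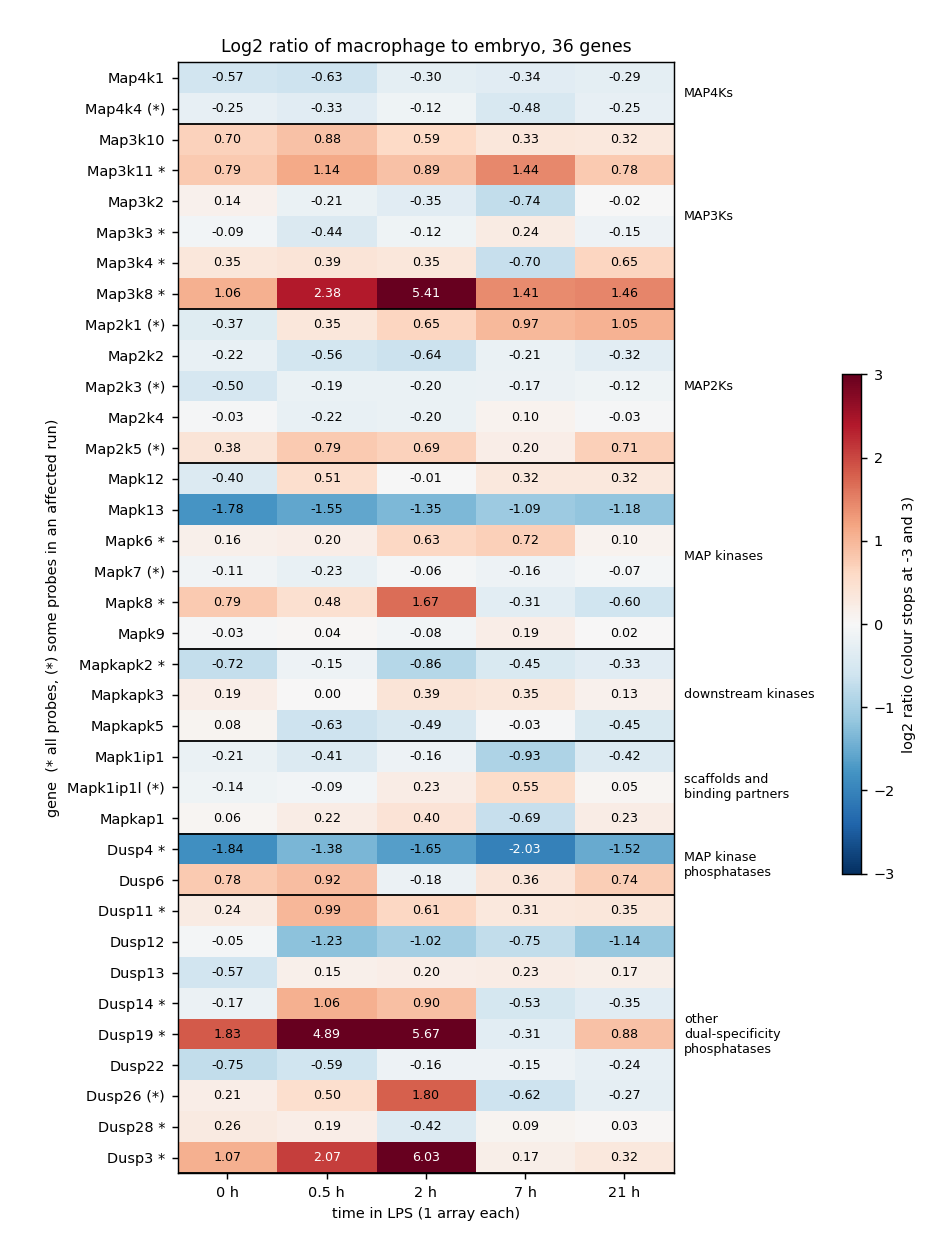
Log2 ratio of macrophage to embryo (array median 0) for the 36 genes at 0, 0.5, 2, 7 and 21 h of LPS, 1 array each, grouped by role; 1 asterisk marks genes with all probes in affected runs and an asterisk in brackets those with some. The darkest cells are Dusp19 at 0.5 h, at 4.89, and Map3k8, Dusp3 and Dusp19 at 2 h, at 5.41, 6.03 and 5.67. At 7 h Map3k8, Dusp3 and Dusp19 stood at 1.41, 0.17 and -0.31.

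Of the 36 genes, 27 (75%) were under 2-fold from 0 h at all 4 later times, as were 79.5% of all named genes. Under 1.5-fold throughout were 14 (38.9%), against 53.4% of all named genes. Those 14 were Map4k1, Map4k4, Map3k3, Map3k10, Map2k2, Map2k3, Map2k4, Map2k5, Mapk6, Mapk7, Mapk9, Mapkapk2, Mapkapk3 and Dusp4. The 9 genes at or beyond 2-fold at some time were Map3k4, Map3k8, Map2k1, Mapk8, Dusp3, Dusp12, Dusp14, Dusp19 and Dusp26.

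At 0.5 h, 3 of the 36 genes (Map3k8, Dusp14 and Dusp19) were at least 2-fold higher, where 5.95% of all named genes were, and Dusp12 was at least 2-fold lower, where 1.01% were. At 2 h, 6 were higher (Map3k8, Map2k1, Dusp3, Dusp14, Dusp19 and Dusp26), or 16.7% against 12.4% of all genes, and 0 were lower against 1.10%. At 7 h Map2k1 was higher, against 4.08% of all genes, and Map3k4, Mapk8 and Dusp19 were lower, or 8.33% against 3.16%. At 21 h Map2k1 was higher, against 3.05%, and Mapk8 and Dusp12 were lower, or 5.56% against 1.45%. The early higher counts lie near the background of the whole array. The lower shares at 7 h and 21 h are larger than the background but rest on 3 and 2 genes.

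Before LPS most of the genes lay near their level in the embryo. At 0 h the median log2 ratio of the 36 genes was -0.03 with an interquartile range of -0.28 to 0.28, beside -0.03 and -0.38 to 0.32 over all named genes. Dusp19 (1.83), Dusp3 (1.07) and Map3k8 (1.06) were at least 2-fold above the embryo, and Dusp4 (-1.84) and Mapk13 (-1.78) at least 2-fold below it. These are 8.33% above and 5.56% below, beside 5.40% and 7.06% of all named genes. The 3 genes highest at 0 h were also the 3 highest at 2 h, and Dusp4 and Mapk13 were the 2 lowest on each of the 5 arrays.

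The median change of the 36 genes was 0.14, 0.24, -0.02 and 0.00 at 0.5, 2, 7 and 21 h, beside 0.08, 0.07, 0.00 and 0.02 over all 8637 genes. In the 23 genes with a probe outside the affected runs the medians were 0.14, 0.04, 0.10 and 0.02. Of these 23, 0 had reached 2-fold above 0 h at 0.5 h (background 1.28%), and Dusp12 was lower (0.984%). At 2 h Map2k1 was higher (4.22%) and 0 were lower (1.55%). At 7 h the counts were 0 higher (4.52%) and 0 lower (2.87%), and at 21 h Map2k1 was higher (2.55%) and Dusp12 lower (1.08%).

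**Figure D2:**
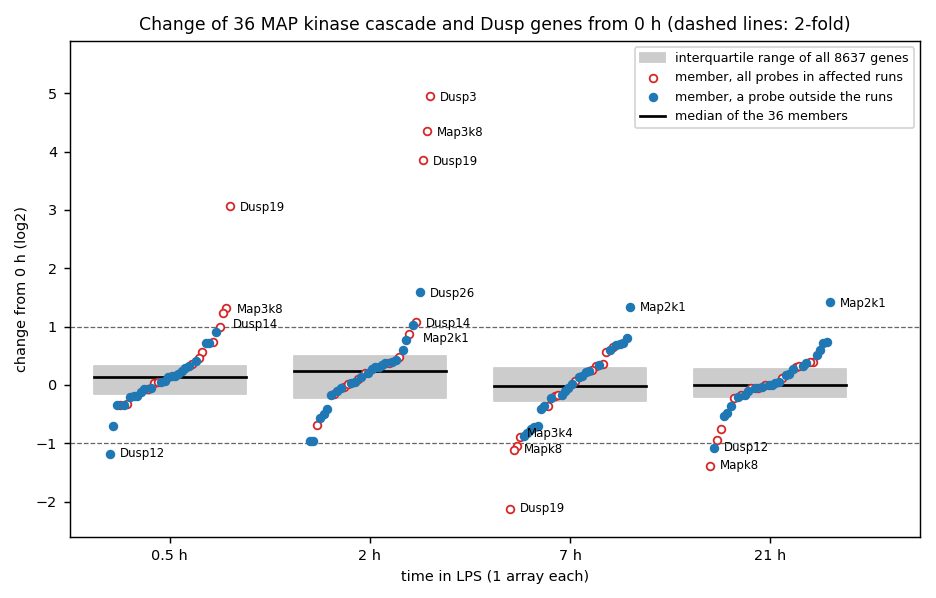
Change from 0 h (log2) of the 36 genes at 4 times in LPS, 1 array each, sorted from low to high within each time; grey boxes span the interquartile range of all 8637 genes, black lines are the median of the 36, and dashed lines mark 2-fold. Most points lie within or near the boxes, and open red points, genes with all probes in affected runs, make up the far upper end at 2 h (Dusp3 4.95, Map3k8 4.35, Dusp19 3.85).

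The MAP4Ks, at the top of the cascade, lay near 0 h. Map4k1 (HPK1), a kinase of blood cells that acts above JNK, had changes of -0.06 ± 0.10, 0.27 ± 0.32, 0.24 ± 0.22 and 0.28 ± 0.32 (SD over 2 probes) at 0.5, 2, 7 and 21 h. Map4k4, also above JNK, had -0.07 ± 0.51, 0.14 ± 0.34, -0.23 ± 0.58 and 0.00 ± 0.16 (SD over 4 probes). Neither differed from 0 h by as much as the SD between probes of one gene.

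Map3k8, the MAP3K that links Tlr4 to ERK in macrophages, had the second highest change of all 36 genes. Its log2 ratio was 1.06, 2.38, 5.41, 1.41 and 1.46 at 0, 0.5, 2, 7 and 21 h. The 2 h array stands apart, and 0, 7 and 21 h lie within 0.40 of each other. Against 0 h this was 2.50-fold at 0.5 h, 20.4-fold at 2 h, 1.28-fold at 7 h and 1.32-fold at 21 h. The single probe lies in an affected run. Its 89 neighbours by probe number (within 48 on each side) had a median change of 0.17 at 0.5 h and 0.24 at 2 h. Of them, 9 were at or above it at 0.5 h and 3 at 2 h, while 14.6% and 22.5% were at least 2-fold higher. With the neighbours' median taken off, the change at 2 h was 4.11. A median does not follow high values in a minority of neighbours, so taking it off cannot remove an effect of that kind. Quantile normalization left 0.36 at 0.5 h and 1.56 at 2 h.

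The other MAP3Ks showed no such peak. Map3k4 (MEKK4), which acts above p38 and JNK, stood at 0.35, 0.39, 0.35, -0.70 and 0.65, so that it was 2.07-fold lower at 7 h alone. At 7 h 15 of its 81 neighbours were at or below it, and its change less their median was -0.86, short of 2-fold. Map3k2 (MEKK2) also had its lowest value at 7 h, with changes of -0.35, -0.50, -0.88 and -0.17. Both genes were back within 0.31 of 0 h by 21 h. Map3k3 ranged from -0.34 to 0.33, and the mixed-lineage kinases Map3k10 and Map3k11 ranged from -0.37 to 0.18 and from -0.01 to 0.65.

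Map2k1 (MEK1), which phosphorylates the ERKs and is itself a substrate of Map3k8, was the one gene of the 36 that stayed at least 2-fold higher at both late times. Its log2 ratio, the mean of 2 probes, was -0.37, 0.35, 0.65, 0.97 and 1.05 in order of time. Every array with LPS lay above the 0 h array. The change was 0.72 ± 0.35, 1.02 ± 0.83, 1.34 ± 0.55 and 1.42 ± 0.35 (SD over 2 probes), or 2.53-fold at 7 h and 2.67-fold at 21 h. Both probes carry the same accession. The probe outside the affected runs had changes of 0.97, 1.61, 0.95 and 1.17, and the one inside 0.47, 0.43, 1.73 and 1.67. They thus lay above 0 h at all 4 times, although their ratios differed, with -1.68 and 0.93 at 0 h. Of the neighbours of the outside probe, 13 of 95 were at or above it at 7 h and 4 at 21 h, and for the inside probe 7 and 9 of 91. Set against the 0.5 h array instead, the gene stood 0.62 higher at 7 h and 0.70 at 21 h, short of 2-fold, and at 2 h quantile normalization left 0.58.

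Map2k2 (MEK2), the partner of Map2k1 on the same substrates, had changes of -0.34 ± 0.27, -0.42 ± 0.05, 0.01 ± 0.58 and -0.10 ± 0.22 (SD over 2 probes). Map2k3, an activator of p38, is the gene with the most probes. Its changes were 0.32 ± 0.18, 0.30 ± 0.40, 0.34 ± 0.35 and 0.38 ± 0.57 (SD over 5 probes), each below the pooled SD between probes. Its probes outside the affected runs had means of 0.26, 0.37, 0.30 and 0.72, the last 1.64-fold and above that SD. At 21 h the probes inside the runs had -0.57 and 0.35. Map2k4, which feeds JNK and p38, ranged from -0.19 to 0.13, and Map2k5, the activator of Mapk7, from -0.17 to 0.41. Map2k6, the second p38 activator, had log2 ratios of 5.76, 0.48 and 4.09 at 0, 0.5 and 21 h on its single probe, was not measured at 2 h and 7 h, and enters no count.

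**Figure D3:**
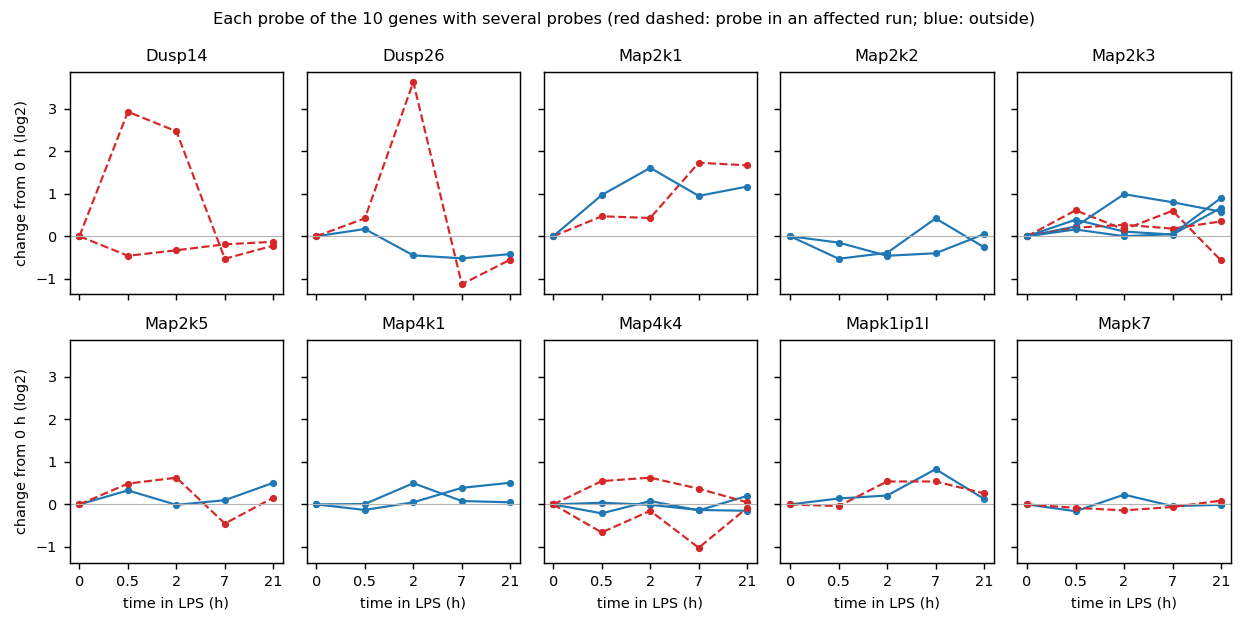
Change from 0 h (log2) against time in LPS (h) for each probe of the 10 genes with several probes, red dashed lines for probes in affected runs and blue lines for those outside. The 2 probes of Map2k1 both lie above 0 at every later time, while those of Dusp14 (2.93 and -0.46 at 0.5 h) and Dusp26 (3.63 and -0.45 at 2 h) part.

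Among the MAP kinases, Mapk8 (JNK1) stood apart from the others. Its log2 ratio was 0.79, 0.48, 1.67, -0.31 and -0.60, so that the 7 h and 21 h arrays were the lowest. It was 2.15-fold lower than 0 h at 7 h and 2.62-fold lower at 21 h. The single probe lies in an affected run, where 53.2% of its neighbours were at least 2-fold higher at 2 h. Late, the neighbours stood at medians of 0.03 and 0.08, and of 79 neighbours 3 were at or below Mapk8 at 7 h and 1 at 21 h. Against the 0.5 h array it was -0.79 at 7 h and -1.07 at 21 h.

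Mapk9 (JNK2), the close relative of Mapk8, had log2 ratios of -0.03, 0.04, -0.08, 0.19 and 0.02, a range within the SD between probes. The 2 genes of the p38 class that were measured, Mapk12 (p38 gamma) and Mapk13 (p38 delta), lay above 0 h at all 4 times without reaching 2-fold. Mapk12 stood at -0.40, 0.51, -0.01, 0.32 and 0.32. Mapk13 stood at -1.78, -1.55, -1.35, -1.09 and -1.18, the second lowest ratio to embryo of the 36 genes at 0 h. At 21 h their changes of 0.72 and 0.60 exceeded the SD between probes, which was 0.47. That SD does not measure the variation between arrays. Against the 0.5 h array Mapk12 was at -0.52, -0.19 and -0.19 at 2, 7 and 21 h, and Mapk13 at 0.20, 0.46 and 0.36. Mapk6 (ERK3), an atypical MAP kinase, stood at 0.16, 0.20, 0.63, 0.72 and 0.10. Mapk7 (ERK5) was the steadiest, with -0.11, -0.23, -0.06, -0.16 and -0.07 over 2 probes whose changes had SDs of 0.06, 0.26, 0.01 and 0.07.

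The member kinases that p38 and ERK switch on, Mapkapk2, Mapkapk3 and Mapkapk5, showed no change of 2-fold. Rps6ka6, a downstream kinase that is not a member, was 3.21-fold higher at 2 h and 2.28-fold higher at 21 h. Its 1 probe lies in an affected run. Mapkapk2 (MK2), which stabilises cytokine mRNA in LPS-treated macrophages, had changes of 0.57, -0.15, 0.26 and 0.39. Mapkapk3 ranged from -0.19 to 0.20, and Mapkapk5 lay below 0 h at each time, by -0.71, -0.57, -0.11 and -0.53. Mapkap1 (Sin1), a subunit of the mTORC2 complex that carries the name of the family, had 0.16, 0.34, -0.75 and 0.17. Mapk1ip1 had -0.73 and Mapk1ip1l 0.69 ± 0.20 (SD over 2 probes) at 7 h, their farthest values, and at 21 h they were at -0.21 and 0.19.

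Of the typical MAP kinase phosphatases, which carry a MAP kinase-binding domain, 2 were measured. Dusp6, the cytoplasmic ERK phosphatase, had log2 ratios of 0.78, 0.92, -0.18, 0.36 and 0.74, so the 2 h array was the lowest. Its change there was -0.96, 1.95-fold lower and just short of 2-fold, on a probe outside the affected runs, with 2 of 87 neighbours at or below it. Quantile normalization put it at -1.30. Dusp4, a nuclear phosphatase of ERK and JNK, had the lowest ratio to embryo of the 36 genes at 0 h. Its log2 ratio was -1.84, -1.38, -1.65, -2.03 and -1.52, and its largest change was 0.46. Dusp1, Dusp2, Dusp5, Dusp10 and Dusp16 were not analysed here.

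The other dual-specificity phosphatases are small enzymes without that domain, and they held most of the high early values. Dusp3 (VHR), which acts on ERK and JNK, had log2 ratios of 1.07, 2.07, 6.03, 0.17 and 0.32, the highest change of the 36 genes at 2 h (30.9-fold). Dusp19, a phosphatase linked to the JNK pathway, stood at 1.83, 4.89, 5.67, -0.31 and 0.88. This was 8.35-fold higher than 0 h at 0.5 h and 14.4-fold at 2 h, but 4.39-fold lower at 7 h and 1.93-fold lower at 21 h. Each had 1 probe, lying in an affected run, among neighbours of which 55.0% (Dusp3) and 35.4% (Dusp19) were at least 2-fold higher at 2 h. Of these neighbours 6 of 80 were at or above Dusp3 and 5 of 79 at or above Dusp19. Quantile normalization left 1.88 for Dusp3 at 2 h, and 0.49 and 0.05 for Dusp19 at 0.5 h and 2 h. It put Dusp19 at -3.58 at 7 h. With median centring the change there was -2.13, and 2 of its neighbours were at or below that.

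For Dusp14 and Dusp26 a second probe with the same accession did not share the high early value. Dusp14, a phosphatase that restrains T-cell and innate signalling, had probes at 2.93 and -0.46 at 0.5 h and at 2.47 and -0.33 at 2 h. Their mean gave a change of 1.23 ± 2.40 and 1.07 ± 1.98 (SD over 2 probes), so the spread exceeds the change. At 2 h 24 of 78 neighbours of its high probe were at or above it. Under quantile normalization the means were 0.90 and 0.57. At 7 h and 21 h the probes were close, with means of -0.36 ± 0.24 and -0.18 ± 0.07.

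Dusp26, a phosphatase studied mainly in nervous tissue, had probes at 3.63 and -0.45 at 2 h, a mean of 1.59 ± 2.89 (SD over 2 probes). The low value came from the probe outside the affected runs. At the other times the probes were closer, with means of 0.29 ± 0.18, -0.82 ± 0.43 and -0.48 ± 0.09 at 0.5, 7 and 21 h. For both genes the call at 2-fold thus rested on 1 of 2 probes.

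**Figure D4:**
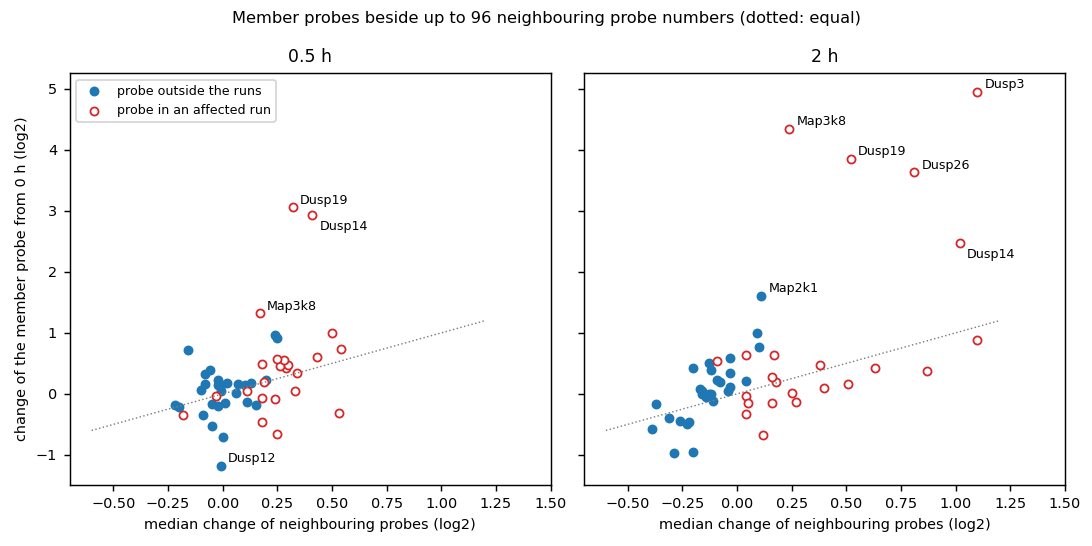
Change from 0 h (log2) of each of the 51 member probes at 0.5 h and 2 h against the median change of its neighbours by probe number (within 48 on each side), open red for probes in affected runs and blue for those outside; the dotted line marks equal values. At 2 h the probes of Dusp3 and Dusp14 lie among neighbours with medians of 1.10 and 1.02, and that of Map3k8 among neighbours with a median of 0.24.

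Dusp12 was low from the first time on. This phosphatase with a zinc-binding end, whose substrates are less well known, had log2 ratios of -0.05, -1.23, -1.02, -0.75 and -1.14. All arrays with LPS lay below the 0 h array, by 2.26-fold, 1.96-fold, 1.63-fold and 2.12-fold. Its probe lies outside the affected runs, and of 95 neighbours 0 were at or below it at 0.5 h and 2 h, and 2 at 7 h and 21 h. Measured from 0.5 h instead of 0 h, its changes were 0.21, 0.48 and 0.09, so that all of the difference lies between the 0 h array and the rest.

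Dusp13, known from muscle and testis, was the converse within a smaller range, at -0.57 at 0 h and 0.15, 0.20, 0.23 and 0.17 later. Dusp22, which can activate JNK, had changes of 0.15, 0.59, 0.60 and 0.51. Dusp11, an RNA phosphatase, had its largest change of 0.74 at 0.5 h, where 36.5% of its neighbours were at least 2-fold higher. Dusp28 had its lowest value of -0.68 at 2 h. None of these reached 2-fold.

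Over all member probes, the 23 inside the affected runs had 3 at least 2-fold higher at 0.5 h and 5 at 2 h, where 15.4% and 27.1% of all 8096 probes inside were. The 28 outside had 0 and 1, where 1.53% and 4.38% of 10200 probes were. At 7 h 5 of the inside probes and 0 of the outside ones were at least 2-fold lower, against 4.48% and 3.10% of all probes there. The runs were defined by high values at 0.5 h and 2 h, member probes included, so the early difference between inside and outside is set by that definition.

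Other genes of the pathway were taken from 7 lists of 139 symbols, in which some genes stand under more than 1 name. Of these symbols 72 were measured. Of the 72, 8 lay 2-fold or more above 0 h and 0 as far below it at 0.5 h, 9 and 1 at 2 h, 7 and 2 at 7 h, and 5 and 1 at 21 h. Over all named genes the shares above and below were 5.95% and 1.01%, 12.4% and 1.10%, 4.08% and 3.16%, and 3.05% and 1.45%. The 9 genes above at 2 h are thus at the background. The medians of the 72 were 0.17, 0.13, 0.09 and 0.08, beside 0.08, 0.07, 0.00 and 0.02 over all genes. Outside the affected runs the counts were 2 and 0, 3 and 1, 6 and 2, and 4 and 0 of 51 genes. The shares of all genes there were 1.28% and 0.984%, 4.22% and 1.55%, 4.52% and 2.87%, and 2.55% and 1.08%.

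Nuclear targets of the kinases held 5 of the 8 genes higher at 0.5 h, out of 21 measured, where 5.95% of all named genes were. Each of the 5 was measured only inside affected runs, where 15.4% of all probes were at least 2-fold higher at that time. Junb, an AP-1 subunit, had changes of 1.92, 1.94, 1.19 and 0.46. Ier3, an early response gene that affects ERK signalling, had 1.42, 0.65, 1.26 and 1.10. The growth regulator Myc was at 1.29, 0.89, -0.91 and -1.66, so that it was higher early and lower late. Mef2c, a transcription factor activated by p38 and Mapk7, lay at -1.02 ± 0.45 at 7 h (SD over 2 probes), outside the runs.

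Of 5 measured partners and relatives of the Map3k8 complex, Nfkbia, the inhibitor of NF-kappaB, was at least 2-fold higher at 0.5 h and 7 h, with changes of 1.35, 0.79, 1.73 and 0.82. Tnip2 (ABIN2), which stabilises the Map3k8 protein, had -0.38, -0.34, -0.20 and 0.08. Ikbkg had -0.09, -0.57, 0.84 and -0.22, and Rela had values between -0.20 and 0.15.

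Of 4 measured receptor and adaptor genes, Peli1, a ubiquitin ligase of Tlr signalling, had changes of 0.10 ± 0.10, 1.55 ± 1.21, 1.76 ± 1.18 and 1.0 ± 0.66 (SD over 3 probes), the last just under 2-fold. Gadd45b, a stress gene whose protein binds Map3k4, had 1.11 ± 0.45, 2.89 ± 0.67, 2.69 ± 0.68 and 1.14 ± 0.80 (SD over 2 probes), and its probe outside the affected runs had 1.43, 3.37, 3.17 and 1.70. Map3k4 itself was low at 7 h, as given above. In the Ras and Raf arm Nras was the farthest from 0 h early, at 2.28 ± 2.61 and 1.69 ± 1.56 (SD over 2 probes), with 0.43 and 0.58 at its outside probe. In the same arm Rap1b was 2.02-fold higher at 7 h. Among phosphatases and scaffolds, Ppp2r1a, the scaffold subunit of the phosphatase PP2A, had 0.63, 1.24, 1.40 and 1.04, and Arrb1, an arrestin that can scaffold MAP kinases, had -0.64, -1.46, -1.54 and -0.83. Both of these single probes lie outside the affected runs.

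The bases before the annotated start are shown for Map2k1, Mapk8 and Dusp12 because these are the 3 genes at least 2-fold from 0 h at 21 h. Each is the 250 bases upstream of the outermost start, 5′ to 3′, from RefSeq on GRCm38.p6. Capitals mark the GC box GGGCGG and the sequence TGACGT, on either strand, adjoining or overlapping matches being joined.
Map2k1: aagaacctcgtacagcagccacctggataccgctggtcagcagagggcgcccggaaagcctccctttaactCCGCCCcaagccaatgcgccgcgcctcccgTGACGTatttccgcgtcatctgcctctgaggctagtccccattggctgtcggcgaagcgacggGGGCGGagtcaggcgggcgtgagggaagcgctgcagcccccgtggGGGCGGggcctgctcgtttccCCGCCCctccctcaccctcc
Mapk8: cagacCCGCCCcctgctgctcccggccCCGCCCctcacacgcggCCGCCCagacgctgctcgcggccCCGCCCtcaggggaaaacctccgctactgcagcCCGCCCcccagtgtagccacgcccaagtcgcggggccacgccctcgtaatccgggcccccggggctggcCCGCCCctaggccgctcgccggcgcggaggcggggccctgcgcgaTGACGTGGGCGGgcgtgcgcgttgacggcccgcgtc
Dusp12: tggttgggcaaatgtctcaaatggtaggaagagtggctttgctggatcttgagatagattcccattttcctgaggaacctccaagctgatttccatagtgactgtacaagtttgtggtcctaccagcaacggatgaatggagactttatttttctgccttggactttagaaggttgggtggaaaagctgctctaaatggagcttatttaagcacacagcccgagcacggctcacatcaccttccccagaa
They lie on the minus strand at chr9:64253606-64253855, chr14:33447159-33447408 and chr1:170885541-170885790.

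The stretches of Map2k1 and Mapk8 are rich in G and C (68.4% and 79.2%) and hold 4 and 7 GC boxes and 1 TGACGT each, and that of Dusp12 (46.0%) holds neither. Promoter entries were found for 29 of the 36 genes, 39 in all, and 20 of the 39 (51.3%) held a GC box, against 32.7% of the 32851 entries of the table. TGACGT was in 5 (12.8%, against 6.47%). The AP-1 sequence TGANTCA was in 2 (5.13%, against 6.75%), the kappaB motif in 6 (15.4%, against 5.0%) and the CArG box in 0 (against 1.47%). All were searched on both strands, and the motifs and the 3 genes were chosen after the values were seen. The kappaB motif was in entries of Dusp22, Map4k1, Mapk1ip1l, Mapk7 and Mapkap1, and 0 of these 5 genes were at least 2-fold from 0 h at any time. Of all 36 genes, 27 (75%) were likewise under 2-fold throughout. No promoter entry was found for Map3k8, Dusp19 and Dusp26, so these could not be searched. A match is a description of letters and not of binding.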

How the data were processed

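The deposited table holds log10 ratios per probe, as read here from their range. Per the labels' protocols, cDNA was labelled by the indirect amino-allyl method with Cy3, and the software, background correction and normalization are not given in the sources used here. Depth has no meaning for arrays. The number of arrays, 1 per time, limits the precision.

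Of 19828 probes, 14759 had 1 gene symbol in the platform annotation of 2008, 170 had several and 4899 were not listed. Values were multiplied by 3.32 to give log2, and from each array the median of its 18296 probes with a value at all 5 times was subtracted. Probes of a symbol were averaged (13782 probes, 8637 genes). All 53 member probes matched the gene table of GRCm38.p6 by Entrez identifier with the same symbol. The members, lists and runs were chosen with earlier results of these data known. Values at all times were given for genes at least 2-fold from 0 h at any time, for the MAP kinases, Map3k8 and the typical phosphatases. Of each other list, up to 4 genes with the largest late change could be named. The scripts (Python 3.11.15, pandas 2.3.3, numpy 2.4.6) were tested on simulated data with planted changes. Alternatives were no centring, quantile normalization, leaving out the affected runs, subtracting neighbouring probes, the median over probes, probes on both arrays compared, reading the values as log2, and 0.5 h as baseline.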

Additional observations from a re-analysis of the deposited data

Results flagged for a closer look

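Dusp19 lay on opposite sides of 0 h at different times, with a change of 3.06 after 0.5 h, then 3.85 after 2 h, and -2.13 after 7 h. The difference was not tested, since each time is 1 array with 1 probe, and the probe lies in an affected run.

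A probe of Mapk6 that had no value at 0.5 h and so entered no comparison lay 1.28 above 0 h at 2 h. The probe that was used had 0.48 there.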

How the results depend on the processing

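Outside the affected runs, 23 genes were left. The runs were defined by high values at 0.5 h and 2 h, so leaving them out removes early high values by definition. Members at least 2-fold higher became 0 at 0.5 h (all named genes there 1.28%), 1 at 2 h (4.22%) and 0 at 7 h (4.52%). Those lower became 0 at 7 h (2.87%) and 1 at 21 h (1.08%). The medians became 0.04 at 2 h and 0.10 at 7 h, and Dusp26 at 2 h turned to -0.45. Quantile normalization gave 0 higher at 0.5 h (all named genes 2.78%), and 2 higher (4.98%) and 1 lower (4.57%) at 2 h. It gave 4 lower at 21 h (4.53%), with medians of 0.01 at 0.5 h and 0.07 at 2 h. Without centring, which shifts the median of all genes to -0.22 at 7 h and -0.12 at 21 h, 6 were lower at 7 h, and the medians were -0.24 and -0.14. Against 0.5 h, 1 was lower at 2 h, 0 higher and 5 lower at 7 h (median -0.13), and 0 higher and 4 lower at 21 h; Dusp14 at 2 h turned to -0.16 and Dusp12 at 21 h to 0.09. Read as log2, 0 were higher at 0.5 h (all named genes 0.648%) and 3 at 2 h (2.00%). In that reading 0 were higher at 7 h (0.0810%) and 21 h (0.0926%). Lower at 0.5, 7 and 21 h were 0 (0.0232%, 0.0579% and 0.0232%), and the median at 2 h was 0.07. With probes on both arrays compared, 2 were lower at 0.5 h (all named genes 1.03%), which adds Map2k6. The cause of these differences was not tested beyond what each setting leaves out. Subtracting the neighbours and taking the median over probes kept every count within 1.5 times. No replicate could be left out, and no paired analysis was possible because each time has 1 array.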
